A study of Mus musculus with 23 samples.

Results

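The acyl-CoA thioesterases Acot1, Acot2, Acot3, Acot4, Acot9 and Acot13 were followed in bulk RNA-seq of mouse liver. These 6 genes, of 26522 in either deposited table, were chosen by name from the measured LKO against control differences, so those differences are given below as a description. All 6 are listed in both tables and all 6 passed the filter on low counts in every comparison. The study sequenced livers of 23 mice in 4 groups: 5 B100-Control males, 6 B100-LKO males, 6 B100-Control females and 6 B100-LKO females. LKO is the hepatic ablation of Cpt1a that the title of the series names, and the controls carry B100 as well. Every animal was fed WD for 16 weeks and was killed in the fed state. The age of the mice, the driver of the deletion and the clock time of collection are not given in the sources used here. Males and females were deposited in separate tables, so sex and table cannot be told apart.

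Acyl-CoA thioesterases hydrolyse acyl-CoA to a free fatty acid and coenzyme A, the reverse of the step that acyl-CoA synthetases catalyse. They set the balance between activated and free fatty acids and release coenzyme A in each compartment of the cell. Cpt1a, the gene removed in LKO, makes acylcarnitine from long-chain acyl-CoA at the outer mitochondrial membrane, so it draws on the same substrate pool. In rodents the type I enzymes are near copies of one another that work in different places. Acot1 is cytosolic, Acot2 mitochondrial, and Acot3 and Acot4 peroxisomal, and they are known in liver as genes induced by fasting and by activators of PPAR-alpha. Acot9 and Acot13 belong to the unrelated type II enzymes and are mitochondrial or associated with mitochondria.

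Acot1 to Acot4 lie side by side with Acot5 and Acot6 on the plus strand of chromosome 12, with positions from the deposited tables and the build mm39 from the submitters' processing notes. The order is Acot2 (ENSMUSG00000021226, 84034635 to 84040647), Acot1 (ENSMUSG00000072949, 84056264 to 84065145), Acot4 (ENSMUSG00000052392, 84085153 to 84095375), Acot3 (ENSMUSG00000021228, 84098918 to 84107176), Acot5 and Acot6. The 6 genes span 123489 bases, and the shortest gap is the 3542 bases between Acot4 and Acot3. A long noncoding gene on the minus strand, 4732463B04Rik, runs from 84086243 to 84100581 and overlaps both Acot4 and Acot3. The sources used here do not say if reads were counted by strand, so those from these overlaps could not be assigned with certainty. The noncoding gene itself held 1 to 54 counts per library. Acot9 (ENSMUSG00000025287) is on the X chromosome at 154045439 to 154080650 on the plus strand, and Acot13 (ENSMUSG00000006717) is on chromosome 13 at 25001931 to 25015523 on the minus strand.

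Because counts of near-identical genes can be split wrongly, the coding sequences were compared in the GENCODE M21 transcripts of GRCm38. Acot1 and Acot2 were identical at 95.3% of 1236 aligned coding bases, and their longest exact shared run was 273 bases. Acot3 and Acot4 were identical to each other at 75.3% and to Acot1 at 83.9% and 76.5%. Of all 100-base windows of the longest complete coding transcript, 78.1% of Acot1, 82.9% of Acot2, 95.6% of Acot3 and 99.6% of Acot4 were found in no other gene of the cluster. Reads from the remaining windows could come from more than 1 gene, and the counting rule for such reads is not given. A 90-base coding stretch shows the difference, with capitals at the bases that differ from Acot1. It was picked as the stretch, aligned without gaps, that best sets Acot3 and Acot4 apart from Acot1 and Acot2. It is thus not typical of the whole coding sequence. It starts at coding base 1057 of Acot1, counted from the start codon, at 1180 of Acot2, at 1096 of Acot3 and at 1063 of Acot4.
Acot1: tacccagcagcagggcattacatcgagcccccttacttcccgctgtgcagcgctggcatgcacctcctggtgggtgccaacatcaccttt
Acot2: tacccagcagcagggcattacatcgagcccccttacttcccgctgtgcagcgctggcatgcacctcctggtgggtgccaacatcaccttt
Acot3: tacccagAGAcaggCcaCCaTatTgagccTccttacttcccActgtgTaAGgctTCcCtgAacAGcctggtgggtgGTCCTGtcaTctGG
Acot4: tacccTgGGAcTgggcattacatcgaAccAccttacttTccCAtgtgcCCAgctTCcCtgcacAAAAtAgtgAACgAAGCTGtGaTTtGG
Acot2 had 0 differences from Acot1 in this stretch, Acot3 had 28 and Acot4 had 35. The start of the coding sequence separates Acot2 from Acot1, since Acot2 has 123 coding bases, or 41 codons, ahead of the aligned start of Acot1. They are shown because the part that they encode distinguishes the mitochondrial enzyme from the cytosolic one.
Acot2 lead: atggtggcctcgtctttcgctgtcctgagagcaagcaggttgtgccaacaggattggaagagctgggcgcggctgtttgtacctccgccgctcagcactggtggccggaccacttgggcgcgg
Acot1 start: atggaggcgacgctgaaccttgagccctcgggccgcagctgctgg
Acot2 aligned: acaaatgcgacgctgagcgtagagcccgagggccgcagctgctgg

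Total counts ran from 14224665 to 19626662 per library. Control male replicate 4 was the shallowest library, with 18232 genes detected, and its median correlation with the other control males was 0.970, against 0.978 or more for every other library within its group. Cpt1a, which checks the genotype, averaged 357 ± 50.3 CPM (SD, n = 5) in control males, 63.0 ± 20.2 (n = 6) in LKO males, 387 ± 59.1 (n = 6) in control females and 75.9 ± 8.87 (n = 6) in LKO females, with no overlap between genotypes in either sex. CPM is the count scaled to one common library size by TMM normalization. Hepatocyte markers were abundant, 9 of 10 being in both tables and summing to between 56100 and 106000 CPM.

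The females expressed much more of the peroxisomal members Acot3 and Acot4 than the males. The Acot3 difference was the widest found for any of the 6 genes. That of Acot4 was not wider than all others, since among LKO livers the cytosolic Acot1 differed by 1.74 (log2) and Acot4 by 1.50. Acot3, which acts on long-chain acyl-CoA in peroxisomes, measured 15, 8.29, 9.02, 0.964 and 17.5 CPM in control males 1, 2, 3, 4 and 6. In control females it ran from 57.7 to 256 CPM with a median of 131, so every control female lay above every control male. In LKO males Acot3 ran from 2.16 to 40.3 CPM with a median of 14.9, and in LKO females from 47.3 to 336 with a median of 295. Here too the sexes did not overlap.

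Acot4, the peroxisomal enzyme for succinyl-CoA and other dicarboxylic acyl-CoA, showed the same order on a smaller scale. It measured 40.8, 39.3, 40.8, 16.5 and 45.3 CPM in control males 1, 2, 3, 4 and 6, and 63.2 to 171 CPM with a median of 107 in control females. LKO males ran from 27.8 to 95.5 CPM with a median of 56.4 and LKO females from 72.6 to 225 with a median of 167. The sexes did not overlap among controls, while among LKO livers the lowest female lay below the 2 highest males.

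**Figure D1:**
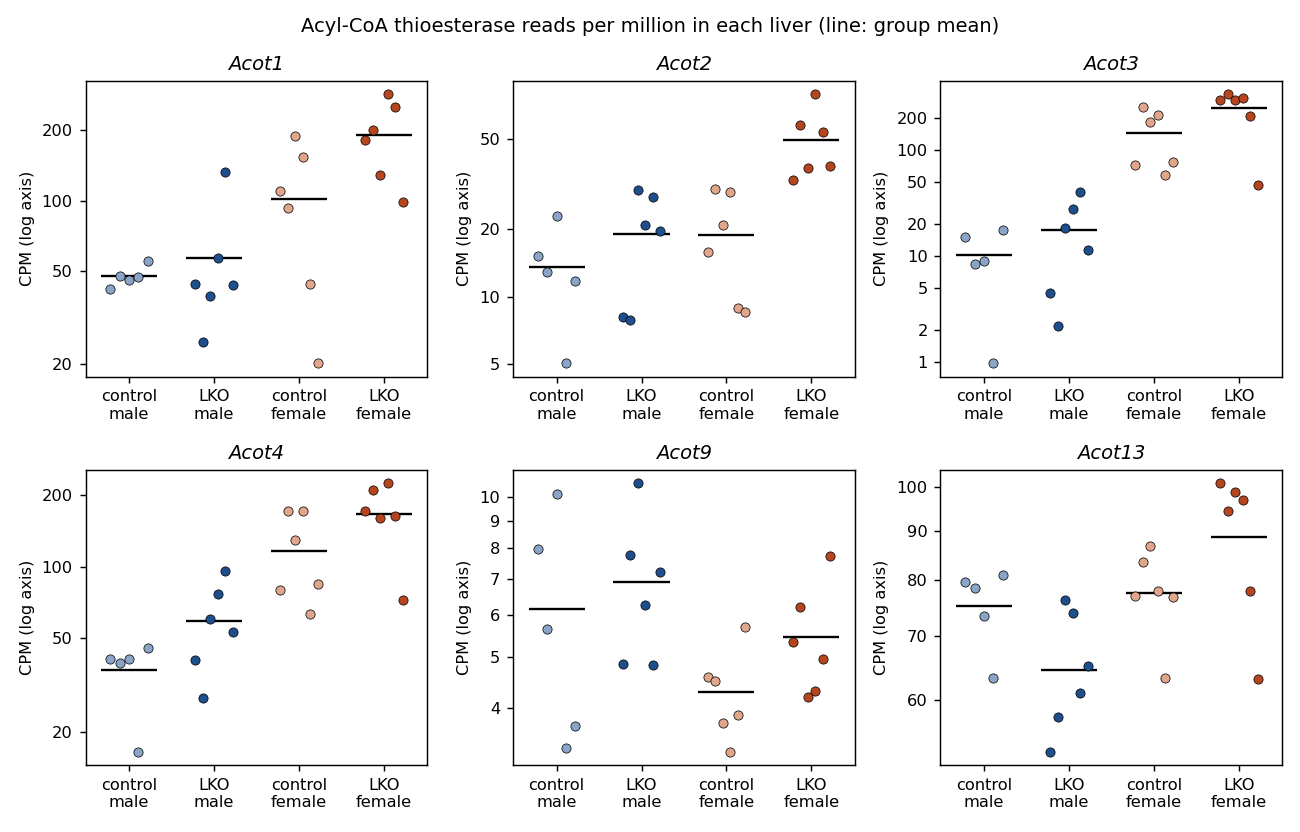
CPM of the 6 thioesterases in each of the 23 livers on a log axis, 1 panel per gene, with points for libraries and a line for the group mean. Acot3 sits at 0.964 to 40.3 CPM in males and at 47.3 to 336 CPM in females, whereas Acot13 stays between 53.0 and 101 CPM throughout.

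With edgeR's quasi-likelihood test and Benjamini-Hochberg adjustment over all genes, Acot3 was higher in control females than in control males by 3.81 on the log2 scale (SE 0.589, 14-fold, adjusted p = 0.00104, 6 of 6 females above the male mean). Acot4 was higher by 1.67 (SE 0.306, 3.18-fold, adjusted p = 0.00305, 6 of 6). Both calls held in all 17 alternatives and when control male replicate 4 was left out, with 3.53 for Acot3 and 1.49 for Acot4. Thus 2 of the 6 members were called higher in control females, where 8.8% of 13699 genes were called in that direction and 18% in either. The control libraries entered the contrast that chose the members too, but the difference between the sexes did not. Over all genes 10.3% had no overlap between the control sexes and 6.15% none between the LKO sexes. The cell type markers listed were 10 for hepatocytes, 12 for macrophages, 8 for stellate cells and 7 for endothelial cells. A further 6 were for cholangiocytes, 10 for lymphocytes and neutrophils and 9 for adipocytes and muscle. Of all these markers, edgeR called 8 higher and 4 lower in control females. Among them were the macrophage genes Timd4 at 1.45 and Vsig4 at 1.03 and, the other way, the macrophage gene Gpnmb at -3.76. Also called were the hepatocyte genes Cps1 at 1.10 and Alb at 0.53, the stellate cell gene Col1a1 at -1.48 and Cidec at -4.16. In LKO livers edgeR called 6 higher and 2 lower, with Cidec at -2.29, where 12.4% of all genes were called. The part of these cells in the Acot3 and Acot4 differences was not tested.

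The other 4 members did not pass between the control sexes. Acot1 measured 1.10 higher (SE 0.421, adjusted p = 0.0871), and it passed in 1 alternative, at 1.31 with adjusted p = 0.0137 when control female replicate 6 was left out. Acot2 measured 0.47 higher (SE 0.381, adjusted p = 0.414), Acot13 0.04 higher (SE 0.095, adjusted p = 0.799) and Acot9 -0.53 (SE 0.268, adjusted p = 0.187).

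Among LKO livers 5 of the 6 members were called higher in females by edgeR, against 5.89% of 13778 genes in that direction and 12.4% in either. The LKO libraries also entered the choice of the members, so this comparison is not independent of it. Acot3 was 3.83 higher (SE 0.609, 14.3-fold, adjusted p = 0.000752), Acot1 1.74 higher (SE 0.356, 3.35-fold, adjusted p = 0.00478), Acot4 1.50 higher (SE 0.286, adjusted p = 0.00295) and Acot2 1.38 higher (SE 0.316, 2.61-fold, adjusted p = 0.00989). Acot13 was 0.45 higher (SE 0.124, adjusted p = 0.0262), a call that was lost in 8 of 18 alternatives. Those were library size alone and the fits without LKO male replicate 2, 5 or 6 or without LKO female replicate 1, 2, 3 or 4, with adjusted p between 0.0512 and 0.0634. Acot9 measured -0.35 (SE 0.204, adjusted p = 0.295).

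Since FPKM divides by gene length, it also allows the genes to be ranked within a group, for the lengths used. The deposited gene length is 3919 bases for Acot1 and 3438 for Acot3. Their longest complete coding transcripts have 2272 and 3431 bases. With the transcript lengths the mean of Acot1 would be higher, and it would lie above that of Acot3 in both female groups. Acot13, the small mitochondria-associated enzyme that prefers long-chain acyl-CoA, had the highest mean in every group, from 86.2 FPKM in LKO males to 118 in LKO females. In males Acot1 came next, at 12.1 ± 1.26 FPKM (SD, n = 5) in controls and 14.4 ± 9.87 (n = 6) in LKO, and Acot3 was the fifth, at 2.95 ± 1.88 and 5.04 ± 4.23. In females Acot3 was in the second place by the deposited lengths, at 41.5 ± 24.4 FPKM (n = 6) in controls and 71.5 ± 30.8 (n = 6) in LKO. Acot9 was last in each group, at 1.87 to 3.02 FPKM on average. The ranges of neighbours in these orders overlapped except between Acot13 and the next gene in 3 groups, between Acot1 and Acot2 in control males, and between Acot2 and Acot9 in both female groups.

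The make-up of the chromosome 12 cluster was described as shares within each library. Acot3 made up 10.1% ± 5.88 (SD, n = 5) of the summed FPKM of Acot1 to Acot6 in control males and 11.5% ± 5.64 (n = 6) in LKO males. It made up 43.5% ± 8.30 (n = 6) in control females and 40.6% ± 12.1 (n = 6) in LKO females. No male library exceeded 18.3% and no female library fell below 20.3%. Acot1 held the largest mean share in males, 46.9% ± 13.4 in controls and 38.8% ± 9.08 in LKO, against 26.8% ± 11.2 and 29.5% ± 6.71 in females. Acot4 stayed between 14.9% and 24.8% on average. Acot6 held at most 1.40% on average and Acot5 at most 0.22%. These shares were taken within each library, rest on the deposited gene lengths and were not tested. FPKM levels set across the sexes come from separate tables.

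**Figure D2:**
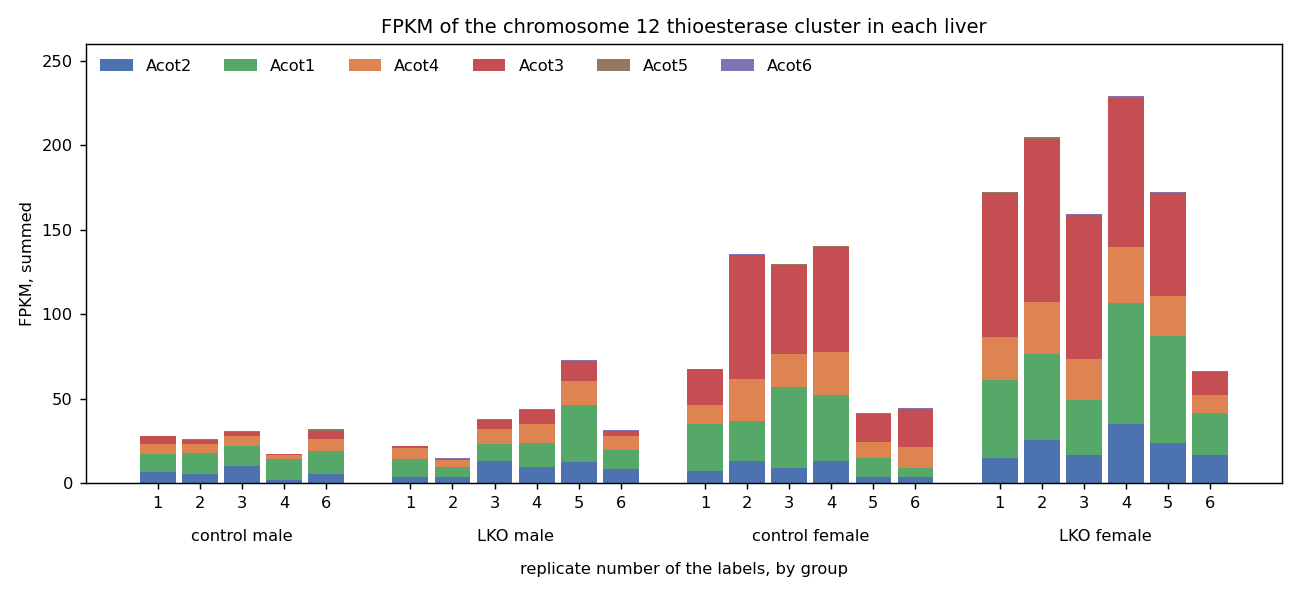
FPKM of the 6 genes of the chromosome 12 cluster stacked for each liver, with the replicate number on the horizontal axis. The Acot3 segment is 1.63 to 18.3% of the bar in males and 20.3 to 54.0% in females.

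The LKO against control differences that selected the members follow for each sex. In males Acot4 differed by 0.68 (log2, SE 0.301), Acot3 by 0.76 (SE 0.664), Acot2 by 0.48 (SE 0.391), Acot1 by 0.26 (SE 0.326), Acot9 by 0.16 (SE 0.295) and Acot13 by -0.22 (SE 0.107). None of the 6 was called by edgeR or DESeq2, and 1 had an unadjusted p under 0.05, beside 1719 of 13805 genes. Over those genes 0.00724% were called by edgeR, which is Cpt1a alone. The genotypes overlapped for every member. The LKO male values of Acot1 were spread unevenly, since replicate 5 measured 133 CPM and the other 5 libraries 24.9 to 56.8 CPM. Without replicate 5 the Acot1 difference was -0.19 and that of Acot3 was 0.32, and the replicate block gave 0.02 for Acot3. Over fits that left out 1 library, Acot2 ran from 0.28 (without control male replicate 4) to 0.76 (without control male replicate 3) and Acot9 from 0.01 (without LKO male replicate 3) to 0.42 (without control male replicate 3).

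In females Acot2, which releases coenzyme A inside mitochondria, was the member with the largest difference, 1.40 on the log2 scale (SE 0.309, 2.63-fold). Control females 1 to 6 ran from 8.55 to 30.0 CPM with a median of 18.3, and LKO females from 32.8 to 78.7 with a median of 45.8, so the groups did not overlap. Acot1 differed by 0.91 (SE 0.415), from 20.2 to 189 CPM with a median of 101 in controls to 98.7 to 285 with a median of 191 in LKO. Acot3 differed by 0.79 (SE 0.432), Acot4 by 0.52 (SE 0.277), Acot9 by 0.35 (SE 0.174) and Acot13 by 0.19 (SE 0.115), and these 5 overlapped between genotypes, while 1.58% of all genes tested had no overlap. All 6 differences were above 0 with a median of 0.66, while the median over all 13684 genes tested was 0.0051.

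Acot2 was the 1 member called in females by edgeR, where 1.42% of genes were called, and nothing is read from this because the contrast chose the members. The call was lost when control female replicate 1, 3, 5 or 6 or LKO female replicate 2, 3, 4 or 5 was left out, and in the fit of all 23 samples, with differences of 1.21 to 1.46 and adjusted p up to 0.0887. In the authors' deposited table Acot2 had a log2 fold change of 1.39 and an adjusted p of 0.00688 in females, and 0.48 and 0.658 in males.

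**Figure D3:**
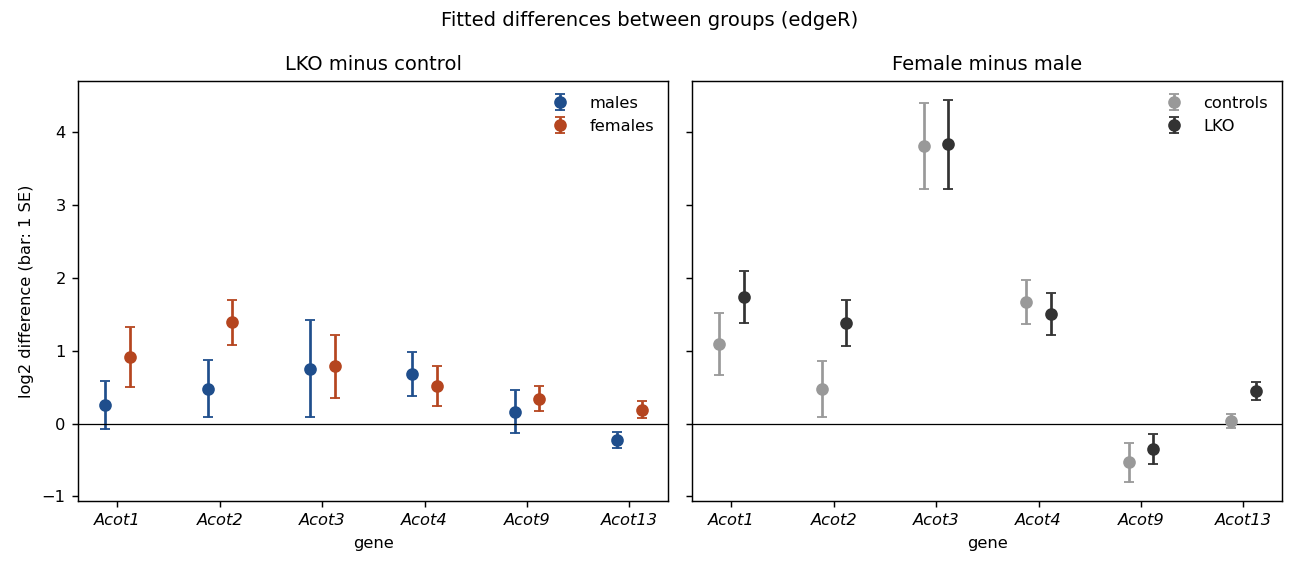
Fitted log2 differences with bars of 1 SE for the 6 thioesterases, LKO minus control on the left and female minus male on the right. Acot3 and Acot4 lie well above 0 in the female minus male panel, at 3.81 and 1.67 in controls, and the largest LKO minus control value is Acot2 in females, at 1.40.

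The genotype by sex interaction, which sets the female change against the male change, was 0.91 for Acot2 (SE 0.527), 0.65 for Acot1 (SE 0.580) and 0.41 for Acot13 (SE 0.161). For Acot9, Acot3 and Acot4 it was 0.18 (SE 0.349), 0.03 (SE 0.845) and -0.16 (SE 0.439). By edgeR 0.0% of 14503 genes were called, 1874 had an unadjusted p under 0.05, and DESeq2 called 97 genes, none of them a member. The lowest adjusted p among the members was 0.298, for Acot13, and that of Acot2 was 0.475 (edgeR), so no member was shown to respond differently in the 2 sexes.

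Within groups the members of the cluster rose and fell together from liver to liver. Group means were subtracted from log2(CPM + 1), so neither genotype nor sex enters, and 15 pairs were tested over 23 livers with 100000 permutations within groups. Acot3 and Acot4 were the closest pair, with Pearson's r of 0.967 and Spearman's rho of 0.919 (permutation p = 1e-05, the smallest that the permutations can give, adjusted p = 0.00015). The value was 0.944 without the 2 livers farthest from the median of Acot3, 0.959 without control male replicate 4 and 0.958 without LKO female replicate 6. Alone, the LKO males gave 0.991 (exact permutation p = 0.00139), the control females 0.988 (exact p = 0.00278) and the LKO females 0.963 (exact p = 0.0125). The 2 genes overlap the same antisense gene but share only 0.344% to 0.63% of their 100-base windows.

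**Figure D4:**
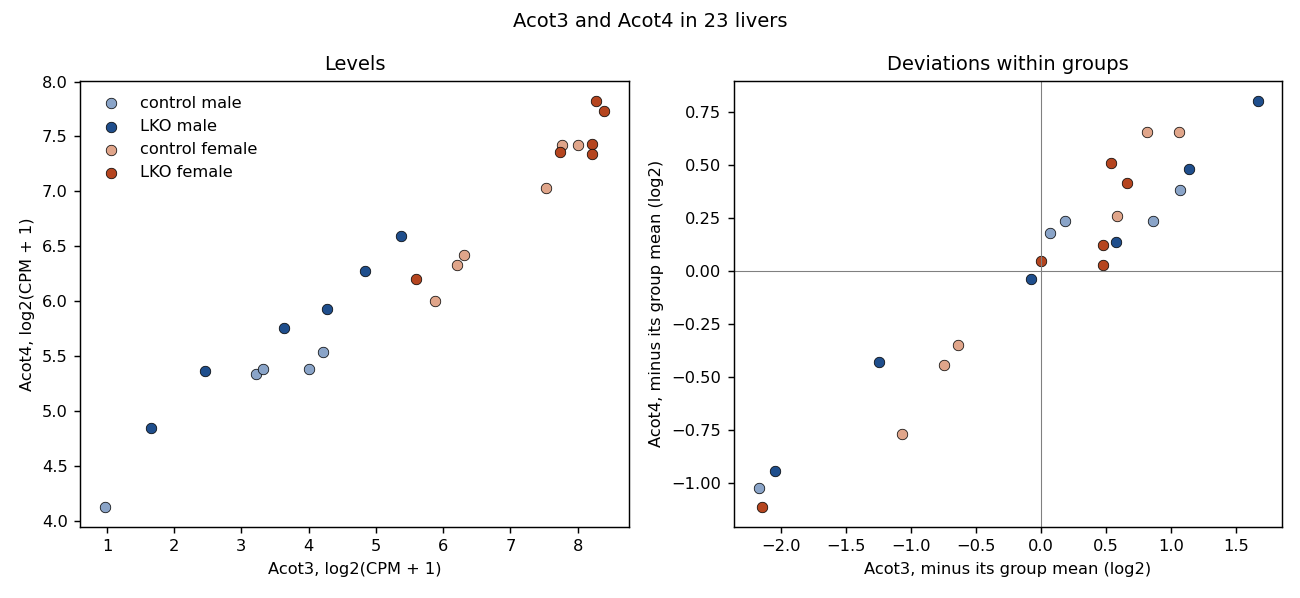
Acot4 against Acot3 in 23 livers, as log2(CPM + 1) on the left and after subtraction of each group's mean on the right, with 1 point per liver coloured by group. The points of the right panel lie along 1 line with r = 0.967.

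The mitochondrial Acot2 followed Acot4 (r = 0.812, rho = 0.805, permutation p = 6e-05, adjusted p = 0.00045) and Acot3 (r = 0.764, adjusted p = 0.00109, permutation test). In LKO females alone these were 0.558 (exact permutation p = 0.243) and 0.328 (exact p = 0.582), against 0.864 to 0.921 in LKO males and control females. Acot13, on another chromosome, followed Acot3 (r = 0.774, rho = 0.662, adjusted p = 0.00109, permutation test) and Acot4 (r = 0.728, adjusted p = 0.00186). Without the 2 farthest livers the latter was 0.554 and no longer passed (adjusted p = 0.0606, permutation test). Acot1 followed each of the other cluster members less closely, at r = 0.639 with Acot4, 0.615 with Acot2 and 0.573 with Acot3, with adjusted p from 0.00385 to 0.00617, and the difference between these correlations and those above was not tested. Acot2 and Acot13 gave r = 0.524 (adjusted p = 0.017, permutation test), which did not hold without the 2 farthest livers (0.420, adjusted p = 0.114), without control male replicate 4 (0.457, adjusted p = 0.0687) or by Spearman's rho (0.452, adjusted p = 0.0558). In LKO females alone it was 0.142.

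Acot9 did not join them. Its r was -0.445 with Acot1 (rho = -0.493, adjusted p = 0.00755 and 0.0204, permutation test). It was -0.301 with permutation p = 0.0643 once the 2 livers farthest from the median of Acot1 were left out, so passing the threshold rests on those livers. Leaving out single livers gave -0.504 to -0.379, and the 3 groups taken alone gave -0.734 to -0.545. With the other 4 members its r lay between -0.10 and 0.242, and no adjusted p passed. Acot1 and Acot13 also did not pass (r = 0.300, adjusted p = 0.23), except without the 2 farthest livers (0.515, adjusted p = 0.0449, permutation test).

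The 250 bases before the start sites of Acot4 and Acot3 are shown because these genes varied together most closely. They come from RefSeq on GRCm38.p6, plus strand, chr12:84038129-84038378 for Acot4 and chr12:84051894-84052143 for Acot3, where capitals mark matches to the motifs searched.
Acot4: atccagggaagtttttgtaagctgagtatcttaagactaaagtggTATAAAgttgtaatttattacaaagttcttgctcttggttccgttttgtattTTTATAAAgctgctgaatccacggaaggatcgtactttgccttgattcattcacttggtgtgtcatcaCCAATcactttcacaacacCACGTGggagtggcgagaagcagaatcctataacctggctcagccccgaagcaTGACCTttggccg
Acot3: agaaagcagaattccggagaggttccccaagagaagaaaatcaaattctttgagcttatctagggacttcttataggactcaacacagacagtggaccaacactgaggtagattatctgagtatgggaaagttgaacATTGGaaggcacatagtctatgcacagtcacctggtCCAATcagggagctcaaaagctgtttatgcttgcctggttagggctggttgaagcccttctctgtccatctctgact
Searched on both strands were the nuclear receptor half-site AGGTCA, the spaced repeat AGGNCANAGGNCA to which PPAR-alpha and its partner RXR bind, the TATA box TATAAA, the CCAAT box CCAAT and the E-box CACGTG, and the last was added after the genes most like Acot4 had been seen. Acot4 held 1 match to the half-site, which 14% of 32851 promoters held, 3 partly overlapping matches to TATAAA (12.4%), 1 to CCAAT (33.8%) and 1 to CACGTG (6.02%). Acot3 held 2 matches to CCAAT and none to the other letters searched. The spaced repeat was found in 0.338% of promoters and in neither of these windows. The promoters of Acot3 and Acot4 aligned over 202 bases with 59.9% identity.

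Each member was also compared with 11721 protein-coding genes by the same within-group r over 23 livers, as a description. The genes most like Acot1 were Slc25a20, the mitochondrial carnitine-acylcarnitine carrier (r = 0.892), Mmd (0.862), Mgll, the monoacylglycerol lipase (0.860), Hsdl2 (0.856) and Eci1, an isomerase of fatty acid oxidation (0.847). Acot2 was most like Paqr7 (0.886), Wwtr1 (0.879), Nrp2 (0.877), the peroxisome biogenesis gene Pex11a (0.863) and Synpo (0.860). Acot13 was most like Coa6, Dhrs7 and Col14a1 (0.862 each), Blvrb (0.848) and Hes1 (0.843).

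Acot3 was most like Usp2 (0.864), Dhrs7 (0.835), Pcsk4 (0.822), Pla2g6 (0.816) and Galk1 (0.813). Acot4 was most like Usp2 (0.887), Pctp (0.882), Pla2g6 (0.874), Per3 and Fbxw4 (0.828 each). Usp2 encodes a ubiquitin protease with a daily rhythm in liver and Per3 is a period gene of the circadian clock. After these names had been seen, clock-related genes were looked up, and 17 were measured at 1 CPM or more. Usp2 and Per3, which prompted the search, are among these 17.

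These 17 genes had r of both signs with Acot3 and Acot4. The rhythmic transcription factors Tef, Hlf and Dbp had r of 0.729, 0.719 and 0.633 with Acot3 and 0.808, 0.770 and 0.625 with Acot4. Per2 had 0.523 and 0.631, Cry1 0.434 and 0.476, and Nr1d2 0.430 and 0.484. The clock activators Arntl and Clock had r of -0.706 and -0.647 with Acot3 and -0.684 and -0.583 with Acot4. The repressors Nfil3 and Nr1d1, themselves rhythmic, were also negative, with -0.490 and -0.416 for Acot3 and -0.405 and -0.400 for Acot4. Without the 2 livers farthest from the member's median r was 0.353 to 0.698 for Tef, Hlf, Dbp and Per2. For Arntl and Clock it was then -0.667 to -0.328. It was 0.228 with both members for Cry1, 0.239 and 0.296 for Nr1d2, -0.273 and -0.223 for Nfil3, and -0.388 and -0.362 for Nr1d1. Per1, Cry2, Ciart, Bhlhe40 and Bhlhe41 had r between -0.283 and 0.308 over all livers. Without the farthest livers the sign turned for Per1, to 0.046 with Acot3 and 0.023 with Acot4, and for Bhlhe40 with Acot4, to 0.052. The 17 genes were chosen after values were seen and the livers share the library preparation, so no test is given. Of the 17, edgeR called 6 higher in control females (Per3 by 1.02, Cry2 by 0.62, Tef and Hlf by 0.59 each, Per1 by 0.51 and Nr1d2 by 0.39 on the log2 scale) and 1 lower (Bhlhe41, by 1.21). Over all genes 8.8% were called higher in control females and 18% in either direction. In LKO livers 1 of the 17 was called, Per3, at 0.92 higher in females, beside 12.4% of all genes. Of 34 targets of PPAR-alpha, edgeR called 3 higher and 5 lower in control females, with 10 of the 34 above 0. Among LKO livers it called 7 higher and 2 lower in females, with 25 of the 34 above 0. The part of the clock-related genes or of these targets in the difference of Acot3 and Acot4 between the sexes was not tested.

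**Figure D5:**
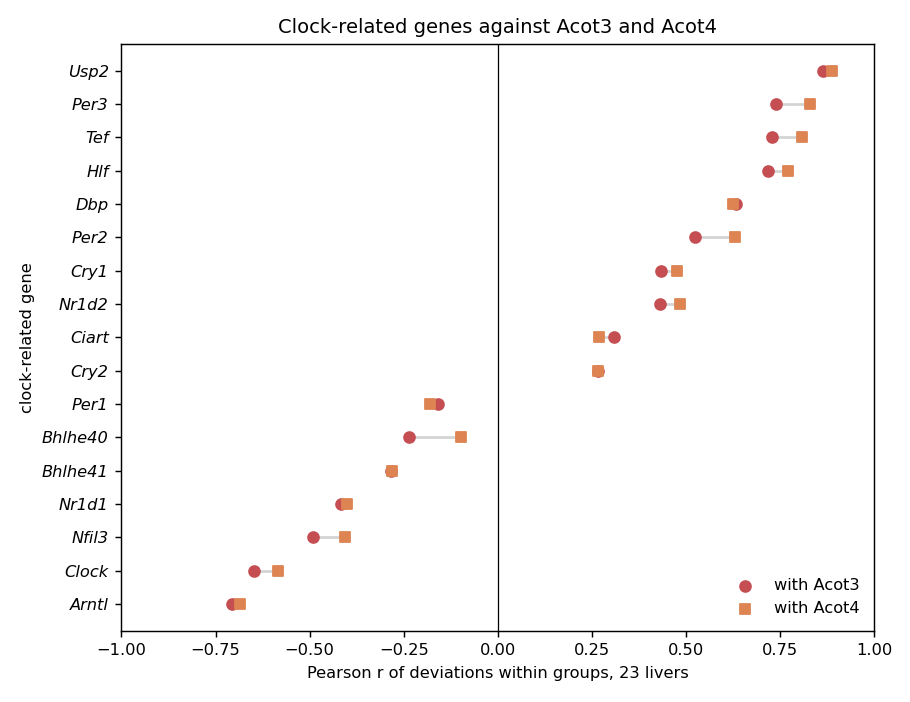
Pearson's r of 17 clock-related genes with Acot3 (circles) and Acot4 (squares) over 23 livers after subtraction of group means. Usp2, Per3, Tef, Hlf and Dbp lie at 0.625 to 0.887 and Arntl and Clock at -0.706 to -0.583.

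Acot9, a mitochondrial enzyme with a broad range of substrates, was the rarest member by group mean, though not in every library. It held 42 to 185 counts per library. It measured 7.97, 5.64, 10.1, 3.37 and 3.70 CPM in control males 1, 2, 3, 4 and 6, 4.83 to 10.6 with a median of 6.73 in LKO males, 3.31 to 5.68 with a median of 4.20 in control females and 4.20 to 7.73 with a median of 5.14 in LKO females. All 4 groups overlapped. The genes most like it were Cap1 (0.877), Arhgap25 (0.875), Evl (0.857), Sh3pxd2b (0.851) and Nckap1l (0.849), of which Arhgap25 and Nckap1l are best known from blood cells.

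Acot9 varied with the markers of cholangiocytes and of macrophages. Over the 23 livers its within-group r was 0.793 (rho 0.706) with the summed CPM of 6 cholangiocyte markers (adjusted p = 0.00924, permutation test over 42 relations) and 0.632 (rho 0.619) with that of 12 macrophage markers (adjusted p = 0.0392). With 9 hepatocyte markers it was -0.593 (adjusted p = 0.0559, permutation test). Without the 2 livers farthest from the median of Acot9 these were 0.669, 0.553 and -0.717. The other lists did not pass (adjusted p from 0.219 to 0.805, permutation test). Their r with Acot9 was 0.469 for stellate cells, -0.107 for endothelial cells and 0.386 for lymphocytes and neutrophils. It was 0.383 for adipocyte and muscle genes, and -0.181 for these without the 2 farthest livers. The cholangiocyte sum ran from 33.4 to 161 CPM over all livers and the macrophage sum from 397 to 1220 CPM. In a bulk sample fewer cells of a type and less RNA per cell cannot be told apart, and the part of these cells in the Acot9 values was not tested.

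Other members also varied with marker lists. Acot13 had r of 0.726 with the 8 stellate cell markers (adjusted p = 0.00588, permutation test) and Acot2 had 0.608 (adjusted p = 0.0316). Acot3 had 0.587 with them (adjusted p = 0.047, permutation test), but its rho of 0.372 did not pass (adjusted p = 0.276). Without the 2 livers farthest from the member's median r was 0.636 for Acot13, 0.417 for Acot2 and 0.403 for Acot3. The cholangiocyte markers also varied with Acot2 (r = 0.583, adjusted p = 0.0392) and Acot13 (r = 0.494, adjusted p = 0.047, permutation test; rho 0.429, adjusted p = 0.197). Without the 2 farthest livers r was 0.383 for Acot2 and 0.287 for Acot13. The list of adipocyte and muscle genes, of which Cidec, a lipid droplet gene, was the only one to pass the count filter, had r of 0.691 with Acot2 (adjusted p = 0.00819), 0.644 with Acot3, 0.605 with Acot4 (adjusted p = 0.0392 for both) and 0.526 with Acot13 (adjusted p = 0.0316), all by permutation test. For this list r without the 2 farthest livers was 0.611 for Acot2, 0.443 for Acot3, 0.482 for Acot4 and 0.378 for Acot13. Tested in females were 9 hepatocyte, 12 macrophage, 8 stellate cell, 7 endothelial cell, 5 cholangiocyte and 7 lymphocyte and neutrophil markers, and Cidec. Of all these, 4 were called higher in LKO females by edgeR, where 1.42% of all genes were called. They were Cidec by 2.01, the macrophage genes Gpnmb by 3.22 and Trem2 by 1.32, and Spp1 by 0.66. Of the 12 macrophage markers only 6 lay above 0 in LKO females, with a median of 0.011. The part of these markers in the LKO values of the members was not tested.

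By edgeR no other thioesterase was called for LKO against control. Of 14 others listed, 10 passed the count filter, and Acot5, Acot10, Them5 and Olah held at most 22 counts in any library. By edgeR 0 of 10 were called for LKO against control in either sex. Of the 10, 2 had an unadjusted p under 0.05 in males and 5 in females, and DESeq2 called 0 and 1. Over all genes 1719 of 13805 in males and 2140 of 13684 in females had an unadjusted p under 0.05, and DESeq2 called 114 and 559. The median difference of the 10 was 0.05 in males and 0.06 in females, beside 0.0103 and 0.0051 over all genes. The lowest p in females was that of Ppt1, the lysosomal palmitoyl-protein thioesterase, which differed by 0.30 (SE 0.076, adjusted p = 0.0623 by edgeR and 0.0163 by DESeq2). In males it was that of Ppt2, at -0.24 (SE 0.084, adjusted p = 0.300). Between the sexes 1 of the 10 was called by edgeR and 2 by DESeq2 in either genotype, beside 18% of all genes called by edgeR in controls and 12.4% in LKO. The gene edgeR called was Them6, lower in females by 0.79 in controls (adjusted p = 0.00544) and by 0.58 in LKO (adjusted p = 0.0349, edgeR). The call in LKO was lost without LKO male replicate 2, 3, 4, 5 or 6 or LKO female replicate 1, 2, 4 or 5, with adjusted p up to 0.0800, and the call in controls was lost with the replicate block (adjusted p = 0.0556).

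The targets of PPAR-alpha, the receptor that induces Acot1 to Acot4 in rodents, lay almost all above 0 in LKO females. By edgeR 0 of 33 tested were called and 20 had an unadjusted p under 0.05, beside 2140 of all 13684 genes. DESeq2 called 6 of the targets, beside 559 of all genes. Other edgeR fits called 4 with the replicate block, 2 with no filter, 2 without control female replicate 3, and 1 without control female replicate 2, control female replicate 4 or LKO female replicate 5. The differences were above 0 for 32 of 33, with a median of 0.37, beside 51.1% of all genes above 0. In males 0 of 34 were called by edgeR or DESeq2, and 6 had an unadjusted p under 0.05, beside 1719 of all 13805 genes. The differences in males were above 0 for 23 of 34, with a median of 0.09. That median was -0.008 without control male replicate 4, 0.004 without LKO male replicate 5 and 0.138 without control male replicate 6. Plin2, which coats lipid droplets, had the lowest p in females at 0.71 (SE 0.169, adjusted p = 0.0519, passing in 6 of 21 alternatives, among them those without control female replicate 2 or 4 or LKO female replicate 5) and measured -0.04 in males. Fabp1, the liver fatty acid binding protein, had the lowest p in males at -0.30 (SE 0.116, adjusted p = 0.324).

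Among 21 acyl-CoA synthetases, which run the opposite reaction, 17 were tested in females and 1 was called by edgeR. Acss2, which activates acetate, was lower by 1.65 (SE 0.384, adjusted p = 0.0487), and this call was lost in 13 of 21 alternatives. They include leaving out control female replicate 1, 5 or 6 or any 1 LKO female, and the adjusted p reached 0.110 without LKO female replicate 3. Without control female replicate 2 the difference shrank to -1.02. In males 0 of 16 were called by edgeR or DESeq2 and 0 had an unadjusted p under 0.05, with the lowest p for Acss3 at 0.74 (SE 0.348, adjusted p = 0.408). Of 11 genes of coenzyme A synthesis and breakdown, Slc25a42, the mitochondrial carrier of coenzyme A, was called higher in LKO females at 0.48 (SE 0.108, adjusted p = 0.0395), a call lost in 10 of 21 alternatives. They include leaving out control female replicate 1, 2, 3, 5 or 6 or LKO female replicate 2, 4, 5 or 6, and the adjusted p reached 0.0990 without control female replicate 5. In males the lowest p was that of Nudt19, a peroxisomal enzyme that breaks down coenzyme A, at -0.26 (SE 0.092, adjusted p = 0.306). Of 12 nuclear receptors and coactivators 0 were called in either sex by edgeR or DESeq2, with 0 at an unadjusted p under 0.05 in males and 1 in females. Lpin1 had the lowest p in both sexes, at 0.45 (SE 0.298) in males and -1.02 (SE 0.381, adjusted p = 0.208) in females, where it was called at -1.51 (adjusted p = 0.0217, edgeR) without LKO female replicate 5.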

How the data were processed

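Polyadenylated RNA of 23 livers was sequenced from dUTP libraries per the labels' protocols. The submitters' processing notes name HISAT2 2.0.5 and mm39; the counter, annotation release, read length and use of strand are not given in the sources used here. The authors deposited, per gene and sample, raw counts, FPKM values and normalized counts (a signal that is the count over 1 size factor per sample), and for each sex a log2 fold change with its p-value, raw and adjusted, whose tool is not given.

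Raw counts were tested with edgeR 4.0.16 in R 4.3.3 (filterByExpr, TMM, quasi-likelihood test, Benjamini-Hochberg adjustment over all genes, called at an adjusted p under 0.05), after checks on simulated data. Each sex was fitted alone for LKO against control, the 11 controls and 12 LKO livers for female against male over the genes in both tables, and all samples for the interaction. CPM is scaled by TMM over all samples. Raw counts of the 2 tables were treated as comparable. FPKM, which the authors deposited in a separate table for each sex, was not tested for female against male. It did enter the alternative limma fits of the interaction, which join both sexes. FPKM levels and within-library shares are described side by side. Total counts were 14224665 to 19626662, and a member with 42 counts is measured with much less precision than the abundant ones. Correlations used log2(CPM + 1) minus group means. Nothing in the labels says how the mice were assigned or housed, so p-values measure the spread between these samples. Coding sequences were aligned with Biopython 1.88.

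The members, lists and tests were chosen with earlier results of these data known. Genes named besides the members were Cpt1a, the other thioesterases, the gene with the lowest p per list and sex, the 2 genes of largest mean CPM per list (Baat, Acot12, Acaa1b, Fabp1, Slc27a2, Slc27a5, Nudt7, Coasy, Hnf4a and Rxra, none called for LKO against control in either sex) and, per member, the 5 protein-coding genes with the highest within-group r at a mean of at least 1 CPM. Clock-related genes, called markers and the E-box were added after values were seen. Tried besides were DESeq2 1.42.0, RLE scaling, plain library sizes, no filter, a minimum of 10 counts in every sample, the replicate number as a block, all samples in 1 fit, each sample left out in turn, and limma 3.58.1 on log2 FPKM with 1 or 0.1 added.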

Additional observations from a re-analysis of the deposited data

Results flagged for a closer look

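Within each group the libraries of the 6 members were screened for 1 value that stands far from the rest, by the gap to its neighbour over the range of the group on the log2(CPM + 1) scale. Of 24 screens, 3 were met, and chance alone meets about 1 in 20. LKO female replicate 6 was the lowest of its group for Acot3, at 47.3 CPM against 212 to 336 CPM in the other 5, and for Acot4, at 72.6 CPM against 161 to 225 CPM. The same liver was also lowest of its group for Acot13, at 63.2 CPM, and highest for Acot9, at 7.73 CPM. Control male replicate 4 was the lowest for Acot4, at 16.5 CPM against 39.3 to 45.3 CPM in the other 4 control males, and it is the library with the lowest total count. It was also the lowest control male for Acot3, at 0.964 CPM.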

How the results depend on the processing

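The LKO against control count in males rose from 1 gene to 114 with DESeq2, 5 in the fit of all 23 samples, 3 with at least 10 counts in every sample, and 2 with library size alone, with no filter and with the replicate block, and ran from 1 to 2 when single libraries were left out. In females the 194 genes became 559 with DESeq2, 334 with the replicate block and 94 in the fit of all 23 samples, and 87 (without control female replicate 5) to 233 when single libraries were left out. The female against male count in controls fell from 2466 to 991 with the replicate block, and the LKO count of 1708 stayed within 1.5 times under all its alternatives. The interaction count of 0 became 97 with DESeq2 and 17 without control male replicate 4. The causes of these moves were not tested.

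Replicate numbers were not taken to pair the samples, since not every same-numbered pair correlated above 0.1 (-0.409 to 0.434 in males, -0.016 to 0.193 in females). In females 4 of 6 pairs were the best match of their number, a hint of pairing from the data, against 1 of 5 in males. With the replicate block the Acot1 difference in males turned to -0.23, and the Acot2 difference in females was 1.47 with adjusted p = 0.00782 (edgeR). No call of a member changed under the block.

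Signs turned for values within their error, namely Acot1 in males (leave-one-out -0.19 to 0.41), Plin2 in males (leave-one-out -0.182 to 0.085), the median of the PPAR-alpha targets in males (leave-one-out -0.008 to 0.138), Acot13 between control sexes (leave-one-out -0.014 to 0.095, negative without control male replicate 4), and the interactions of Acot3 (-0.263 to 0.466), Acot4 (-0.306 to 0.031) and Acot9 (-0.067 to 0.346) when single libraries were left out. Correlations between members that turned all involve Acot9. With library size alone Acot3 and Acot4 gave 0.022 and 0.051 with it, and leaving out single livers gave -0.332 to 0.081 and -0.347 to 0.05. Acot13 gave -0.063 without the 2 farthest livers, -0.711 in LKO females alone and -0.079 to 0.309 when single livers were left out. Acot2 gave -0.518 in control females alone and -0.296 in LKO females alone. The limma fits on FPKM were not run for female against male because FPKM was deposited separately for each sex. They were run for the interaction, which joins the FPKM of both sexes. Control males, 5 in number, were not correlated alone.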
